A study of Mus musculus with 407 samples.

Results

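The genes described here are 10 imprinted genes that are grouped as a growth network, namely H19, Meg3, Rian, Mirg, Dlk1, Plagl1, Cdkn1c, Grb10, Peg3 and Nnat. They were chosen by name among the 24458 gene symbols of the count tables, and all 10 were found, each on 1 row. Their RNA was followed in 4 muscles of C57BL/6J mice of both sexes, the tibialis anterior (TA), the gastrocnemius, the soleus and the diaphragm, at 6 ages, of which the youngest was 6 months and the older ones 12, 18, 21, 24 and 27 months. The mice carried no engineered allele and received no treatment, and they were bought at various ages and then housed before collection. The libraries of total RNA fall into 48 groups of muscle, sex and age with 6 to 10 libraries each, and every muscle and sex has 8 libraries at 6 months and 10 at 27 months. Each library is 1 muscle sample, and the labels do not tie the 4 muscles to a mouse. By the study's methods, all mice of an age were taken on a single day, so age and collection day cannot be told apart.

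Imprinted genes are read mainly from the allele inherited from 1 parent, and many of them act on growth before and shortly after birth. H19, Meg3, Rian, Mirg, Cdkn1c and, in most tissues, Grb10 are read from the maternal allele, while Dlk1, Plagl1, Peg3 and Nnat are read from the paternal allele. Plagl1 is a zinc-finger transcription factor known to regulate several of the others. Many of them fall steeply after birth, and H19 is known to stay abundant in adult skeletal muscle. The counts do not separate the parental alleles, so nothing below bears on allelic use.

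In the GRCm38.p6 assembly, which is the mm10 build of the count tables, 4 of the genes lie in the Dlk1-Dio3 domain on the plus strand of chromosome 12. Dlk1 is at chr12:109452485-109463336, Meg3 at chr12:109540996-109571729, Rian at chr12:109603945-109661716 and Mirg at chr12:109734981-109749458. H19 at chr7:142575530-142578146, Cdkn1c at chr7:143458339-143461059 and Peg3 at chr7:6703892-6730462 are on the minus strand of chromosome 7. Grb10 is at chr11:11930499-12037428 on the minus strand, Plagl1 at chr10:13090832-13131694 on the plus strand and Nnat at chr2:157560078-157562525 on the plus strand, inside Blcap, which runs on the other strand. No source used here says whether the counting used the strand of the reads, so reads of Nnat and Blcap may not be fully separated.

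The 4 noncoding genes are hosts of microRNAs, which is why their mature sequences are shown first. RefSeq places 15 microRNA precursor genes inside them, 1 in H19, 1 in Meg3, 3 in Rian and 10 in Mirg, which give 29 mature microRNAs. The seed, bases 2 to 8, is in capitals, and all sequences run 5′ to 3′. The first pair comes from H19 (chr7:142577078-142577133), the next from Meg3 (chr12:109563710-109563731) and from Rian (chr12:109618305-109618326), and the last 4 come from Mirg (chr12:109735669-109743784).
mmu-miR-675-5p: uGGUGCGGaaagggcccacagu
mmu-miR-675-3p: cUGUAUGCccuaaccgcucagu
mmu-miR-770-5p: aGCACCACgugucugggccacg
mmu-miR-370-3p: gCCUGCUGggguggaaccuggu
mmu-miR-453: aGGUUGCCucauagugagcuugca
mmu-miR-496a-5p: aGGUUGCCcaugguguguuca
mmu-miR-541-5p: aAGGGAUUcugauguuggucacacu
mmu-miR-410-3p: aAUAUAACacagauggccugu

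Among the 29, a shared seed was found in 1 pair, GGUUGCC in mmu-miR-453 and mmu-miR-496a-5p, both inside Mirg. The tables have a row for each of the 15 precursor genes, and these rows hold 3 counts over all libraries together, with 14 of the 15 at 0 in every library. The libraries were made from total RNA with no selection of small RNA, so what follows is about the host transcripts and not about the mature microRNAs.

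Promoter sequences, 250 bases before to 50 bases after a start, were available from RefSeq for 8 of the 10 genes in 10 windows, and not for H19 and Cdkn1c. The first window of Meg3 and those of Rian and Mirg are shown because these genes lie in 1 domain whose RNAs the age comparisons turn on. That of Peg3 is shown because it held a letter match to the PLAGL1 site. Each was searched for GGGGCCCC, a core of the PLAGL1 site, for CAGCTG, an E-box, and for TGACGTCA, the cAMP response element, whose letters read the same on both strands and do not overlap each other; the last was added after the sequences were seen. Matches are in capitals, and the windows are Meg3 at chr12:109540746-109541045, Rian at chr12:109603695-109603994 and Mirg at chr12:109734731-109735030 on the plus strand and Peg3 at chr7:6730370-6730669 on the minus strand, all GRCm38.p6.
Meg3: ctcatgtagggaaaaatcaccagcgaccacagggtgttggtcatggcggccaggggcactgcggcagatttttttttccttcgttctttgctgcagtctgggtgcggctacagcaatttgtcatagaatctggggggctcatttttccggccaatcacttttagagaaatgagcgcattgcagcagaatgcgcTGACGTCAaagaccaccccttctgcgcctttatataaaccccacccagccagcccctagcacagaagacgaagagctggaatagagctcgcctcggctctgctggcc
Rian: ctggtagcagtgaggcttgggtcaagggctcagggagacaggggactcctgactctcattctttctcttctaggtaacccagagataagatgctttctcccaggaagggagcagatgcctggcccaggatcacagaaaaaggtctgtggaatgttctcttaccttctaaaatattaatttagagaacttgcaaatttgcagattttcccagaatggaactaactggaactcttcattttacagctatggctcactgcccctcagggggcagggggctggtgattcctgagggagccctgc
Mirg: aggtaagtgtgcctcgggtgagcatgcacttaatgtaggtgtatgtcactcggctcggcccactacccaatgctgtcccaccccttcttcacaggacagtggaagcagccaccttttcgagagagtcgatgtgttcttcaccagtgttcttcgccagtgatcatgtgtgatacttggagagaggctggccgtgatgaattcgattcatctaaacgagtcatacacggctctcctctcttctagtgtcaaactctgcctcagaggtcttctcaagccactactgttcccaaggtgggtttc
Peg3: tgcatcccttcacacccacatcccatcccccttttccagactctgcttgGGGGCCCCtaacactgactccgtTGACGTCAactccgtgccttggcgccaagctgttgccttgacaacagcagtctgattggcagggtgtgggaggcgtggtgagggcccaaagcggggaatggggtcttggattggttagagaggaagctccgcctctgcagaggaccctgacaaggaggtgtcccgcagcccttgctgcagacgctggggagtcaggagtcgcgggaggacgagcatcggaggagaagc

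TGACGTCA occurs 1 time in the Meg3 window shown and 1 time in the Peg3 window, and GGGGCCCC 1 time in the Peg3 window. A further Meg3 window, at chr12:109545148-109545447, is not shown. It holds none of these letter runs and has 1 CG pair. Of 32851 RefSeq promoter windows of the same length, 1.79% hold TGACGTCA, 1.08% hold GGGGCCCC and 16.3% hold CAGCTG, which none of the 10 windows holds. The Meg3, Rian, Mirg and Peg3 windows shown have 13, 0, 10 and 13 CG pairs, where the median of all windows is 7. The richest window among the members is the first of Grb10, with 45 CG pairs. A match is a run of letters and was not tested as a binding site.

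Counts assigned to genes summed to between 38583802 and 300089909 per library, with a median of 72766895 and a next highest total of 104836980. Levels are given as CPM, read counts relative to library totals that were scaled by TMM, the trimmed mean of M values, over all libraries, and they are not per length, so levels are compared between samples and not between genes. The muscles carried their defining myosin transcripts, with Myh4 of the fastest fibres at medians of 40211 and 32581 CPM in the gastrocnemius and TA and 361 and 107 CPM in the diaphragm and soleus, and Myh7 of slow fibres highest in the soleus at 6176 CPM. A male diaphragm library at 6 months, replicate 2, stood apart. It had the lowest total of all, and its H19 was 141 CPM, where the other 7 of its group had 335 to 546 CPM. In it Rian was 54.4 CPM against 20.0 to 24.6, Plagl1 36.0 against 13.6 to 25.1 and Cdkn1c 17.7 against 8.30 to 11. The summed satellite cell list (Pax7, Myf5, Cdh15, Vcam1, Calcr and Des) was 34.9 against 585 to 733. Over all libraries Des had a median of 1328 CPM and the other markers of that list 0.430 to 9.66 CPM. The sum therefore mainly follows Des and is no measure of satellite cells. The deepest library, male diaphragm at 21 months, replicate 3, held liver RNA, with a summed level of 6 liver markers of 24988 CPM, and replicate 6 at 27 months of the same muscle and sex had 9781 CPM, where the median of all libraries was 7.69. Without replicate 6 at 27 months the male diaphragm kept its 27-month calls for Meg3 (-0.65), Rian (-0.89) and Plagl1 (-0.80). Values without the other two libraries are given beside the results that they change.

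A change with age was called by edgeR's quasi-likelihood test, fitted to each muscle and sex with all 6 ages, where an older age differed from 6 months by more than 1.5-fold at a Benjamini-Hochberg adjusted p below 0.05 over all genes tested. Of the 80 combinations of gene, muscle and sex, 78 had enough counts to be tested, and Dlk1 in the soleus of both sexes did not. At 27 months, 24 of the 78 were called, of which 22 fell and 2 rose. In females the members called were 5 of 10 in the TA, where 7.01% of all genes tested were called, 3 of 9 in the soleus (4.13%), 3 of 10 in the gastrocnemius (4.98%) and 2 of 10 in the diaphragm (1.24%). In males they were 3 of 10 in the TA (4.1%), 3 of 9 in the soleus (1.19%), 2 of 10 in the gastrocnemius (5.41%) and 3 of 10 in the diaphragm (5.6%). The share of members was above the share of all genes in each of the 8. Of the 24 calls, 8 were of Rian, 7 of Meg3 and 2 of Mirg, which lie in 1 domain. In the female diaphragm and the male gastrocnemius, Meg3 and Rian were the only members called. The members were also chosen with earlier results of these data known. The median log2 change of the members ran from -0.61 in the male soleus to -0.083 in the female TA, and that of all genes tested lay between -0.026 and 0.028.

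Counting a call at any of the 5 older ages, 31 of the 78 were called. These were 4, 6, 3 and 5 members in the female diaphragm, gastrocnemius, soleus and TA, beside 2.95%, 9.44%, 8.52% and 9.25% of all genes tested, and 5, 2, 3 and 3 members in the male muscles in the same order, beside 11%, 8.06%, 2.85% and 8.53%. No member was called at 12 months by edgeR, limma-voom or DESeq2, although 25 of the 78 had an unadjusted edgeR p below 0.05. The number called was 11 at 18 months, 19 at 21 months, 17 at 24 months and 24 at 27 months. No share of all genes is given for 12, 18, 21 or 24 months. Groups at 12 to 21 months hold 6 to 8 libraries and those at 24 and 27 months 9 or 10, so what the test can detect also differs by age. Whether this course is particular to the members was not tested. In bulk muscle RNA, fewer cells of a type and less RNA per cell cannot be told apart, which holds for every change below.

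Meg3, a maternally expressed long noncoding RNA that stays in the nucleus, fell in 7 of 8 muscle and sex groups at 27 months. In the female TA it had 25 (lowest), 26.1 (median) and 40.1 (highest) CPM at 6 months and 11, 15.2 and 23.8 CPM at 27 months, a log2 change of -0.87 ± 0.11 (SE; edgeR adjusted p = 1.7e-08). In the male TA it had 12.4, 15.0 and 16.6 CPM at 6 months and 4.45, 7.01 and 9.60 CPM at 27 months, a log2 change of -1.02 ± 0.13 (adjusted p = 1e-07), which is 2.03-fold lower. All 10 old libraries lay below all 8 young ones in the TA of both sexes.

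In the soleus Meg3 fell in both sexes. In females Meg3 had 10.4, 14.8 and 18.6 CPM at 6 months and 5.30, 7.40 and 10.6 CPM at 27 months, a log2 change of -0.94 ± 0.12 (adjusted p = 3.5e-07), and 9 of the 10 old libraries lay below the lowest young one. In males it had 11, 12.4 and 13.8 CPM at 6 months and 4.14, 6.18 and 8.07 CPM at 27 months, a log2 change of -0.99 ± 0.15 (adjusted p = 1.2e-05), with no overlap of the groups. In the male gastrocnemius, too, the groups did not overlap, with 12.1, 16.2 and 18.8 CPM at 6 months and 6.52, 9.50 and 11.9 CPM at 27 months and a log2 change of -0.74 ± 0.13 (adjusted p = 2.4e-05). The share of all genes without overlap was not counted, so these 4 groups, and the statements on overlap of other members, are not set against one.

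In the diaphragm Meg3 fell with overlap of the groups. It had 32.1, 40.7 and 51.9 CPM at 6 months and 18.9, 27.8 and 38.2 CPM at 27 months in females, a log2 change of -0.64 ± 0.14 (adjusted p = 0.0065). In males it had 29.9, 45 and 50.9 CPM at 6 months and 17.9, 27.2 and 36.4 CPM at 27 months, a log2 change of -0.70 ± 0.14 (adjusted p = 0.0028), and the lowest young value is the library that stood apart, without which the change was -0.76. The female gastrocnemius went from 18.0, 19 and 22.9 CPM to 10.6, 12.5 and 22.5 CPM, which is a log2 change of -0.54 ± 0.12 (adjusted p = 0.00057) and stayed under the 1.5-fold limit. There, 9 of 10 old libraries lay below the lowest young one, and replicate 3 of the old group held the highest old value. Without it the log2 change was -0.66 and was called. The old group's summed fibroblast markers, described below, ran from 558 to 1318 CPM. The place of replicate 3 in that range is not given, and its relation to the Meg3 value of that library was not tested.

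Rian, the neighbouring noncoding RNA that hosts small nucleolar RNAs, was the one member called in all 8 groups at 27 months by edgeR and limma-voom, and DESeq2 called it in 7. In the male TA it had 7.48, 8.36 and 9.74 CPM at 6 months and 1.46, 4.06 and 5.70 CPM at 27 months, a log2 change of -1.12 ± 0.17 (adjusted p = 2.6e-06) with no overlap. In the female TA it had 19.4, 21.0 and 34.4 CPM at 6 months and 7.06, 10.9 and 20.1 CPM at 27 months, a log2 change of -0.99 ± 0.13 (adjusted p = 1.9e-07), and 9 of the 10 old libraries lay below the lowest young one. The TA of both sexes was also called for Rian at 18, 21 and 24 months, though the female call at 18 months was lost on leaving out any of 5 libraries.

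In the soleus Rian went from 4.37, 6.11 and 7.12 CPM to 1.76, 2.97 and 5.55 CPM in males, a log2 change of -0.84 ± 0.21 (adjusted p = 0.013), and from 6.00, 7.54 and 10.8 CPM to 2.72, 4.63 and 8.34 CPM in females, a log2 change of -0.69 ± 0.16 (adjusted p = 0.0011). The female soleus had its lowest median of 3.87 CPM at 21 months, where the log2 change was -1.08 ± 0.16, so the 27-month median was above that of 21 months. Old and young soleus libraries overlapped through 1 old library in each sex.

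In the diaphragm Rian had 17.6, 22.9 and 33.6 CPM at 6 months and 8.32, 13.1 and 22.8 CPM at 27 months in females, a log2 change of -0.82 ± 0.16 (adjusted p = 0.0017). In males it had 20.0, 22.2 and 54.4 CPM at 6 months and 9.90, 14.2 and 20.6 CPM at 27 months, a log2 change of -0.88 ± 0.18 (adjusted p = 0.0026). The value of 54.4 CPM is that of the library that stood apart, and without it the change was -0.63 with an adjusted p of 0.012 in the same edgeR test, still a call. The male diaphragm was also called at 21 and 24 months, and without that library at 24 months alone of the pair. The 21-month call was also lost without the library with liver RNA, where the change was -0.67 with an edgeR adjusted p of 0.070.

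In the gastrocnemius Rian fell in both sexes, with the smallest estimate of the 8 groups in males. Female libraries had 9.92, 12.2 and 14.9 CPM at 6 months and 4.60, 6.80 and 16.2 CPM at 27 months, a log2 change of -0.68 ± 0.19 (adjusted p = 0.0043), which was -0.88 without the old replicate 3 named above. Male libraries had 4.2, 7.12 and 7.76 CPM at 6 months and 1.63, 3.64 and 7.76 CPM at 27 months, a log2 change of -0.60 ± 0.20 (adjusted p = 0.02). This call was lost on leaving out any of 10 of the 52 libraries, which are replicates 4 to 9 at 27 months and replicates 0, 3, 4 and 5 at 6 months, with log2 changes of -0.50 to -0.58, and it was also lost with DESeq2 (-0.58).

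Mirg, the host of most microRNAs of the domain, had few counts, with medians of 9 to 38.5 counts per library in the 8 muscle and sex groups and 9 libraries at 0. It was called in the TA of both sexes. Female TA libraries had 0.341, 0.575 and 0.977 CPM at 6 months and 0.0844, 0.333 and 0.501 CPM at 27 months, a log2 change of -0.93 ± 0.26 (adjusted p = 0.0071). Male TA libraries had 0.158, 0.360 and 0.523 CPM at 6 months and 0.101, 0.134 and 0.240 CPM at 27 months, a log2 change of -1.22 ± 0.34 (adjusted p = 0.0085). The groups overlapped in both. In the other 6 groups the estimate was negative, from -0.20 to -0.77, with standard errors of 0.29 to 0.72. None passed the test at 27 months, and the low counts limit what it can detect. The female gastrocnemius was called at 21 months, with -0.99 ± 0.31 (adjusted p = 0.021), and at 27 months without replicate 3 (-0.73).

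**Figure D1:**
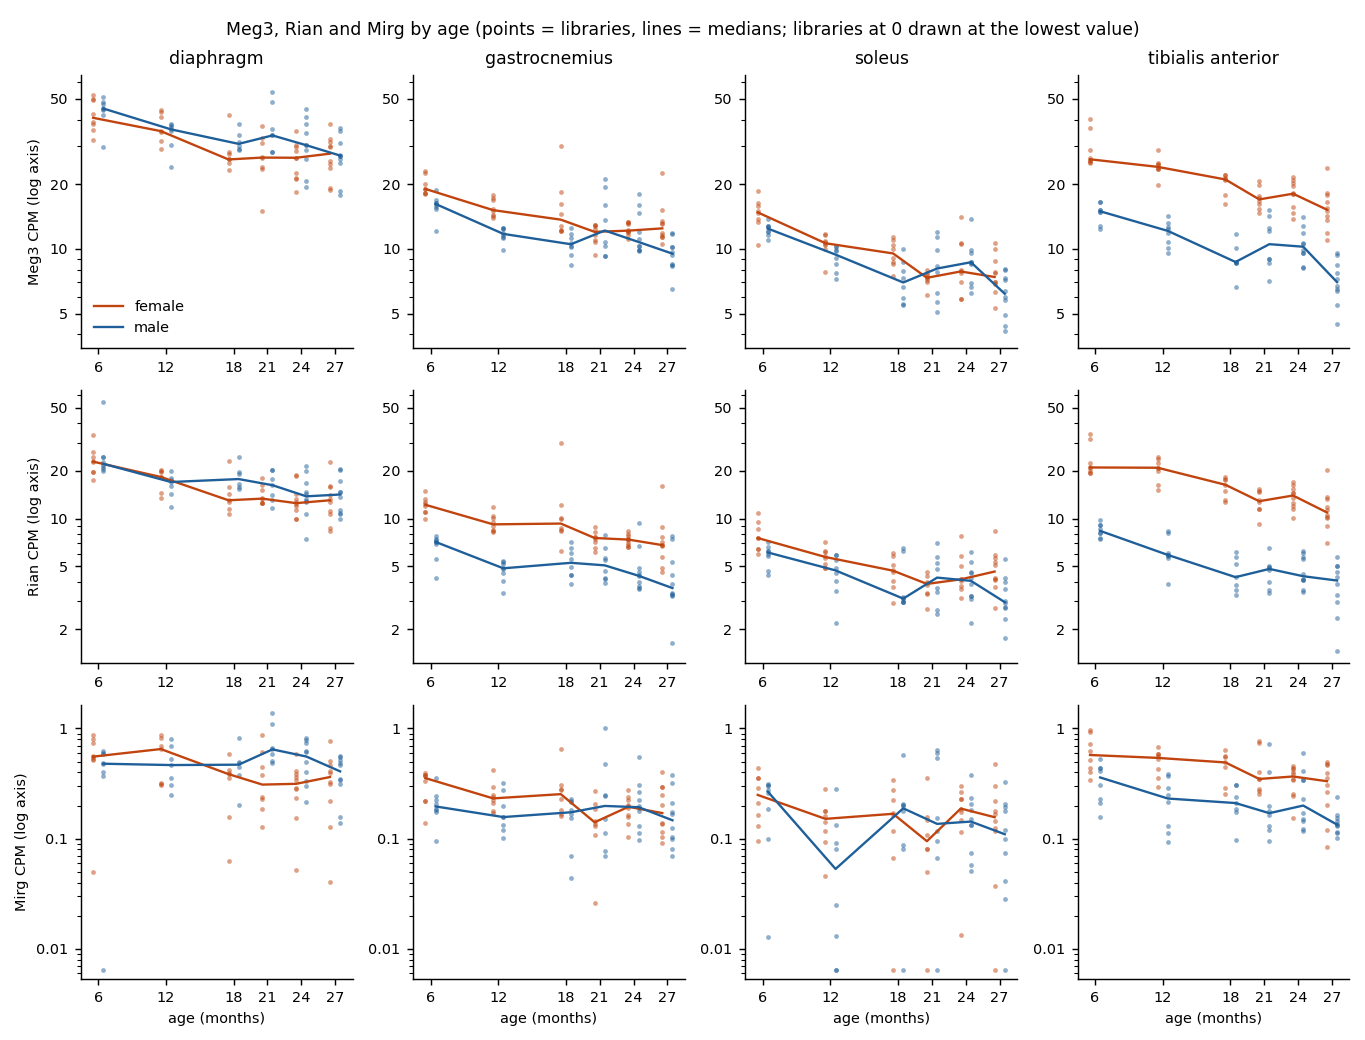
Levels of Meg3, Rian and Mirg in CPM (log axis) against age in months in the 4 muscles; points are libraries, lines join group medians, and females are orange and males blue. In the male TA all 10 libraries at 27 months lie below all 8 at 6 months for Meg3 and Rian, and Mirg is scattered near the lowest counts.

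The ratio of Rian to Meg3 within a library, which does not depend on library size, moved by -0.20 to 0.22 (log2) from 6 to 27 months, and that of Mirg to Meg3 by -0.15 to 1.00. None of these 16 ratios passed an exact two-sided permutation test after adjustment over 24 ratios, and 1 of them, Rian to Meg3 in the female TA, had an unadjusted exact p under 0.05 (p = 0.0166, adjusted p = 0.199). The largest, 1.00 for Mirg in the male diaphragm, includes the library that stood apart, in which Mirg had 0 counts, and without that library it was 0.31 (exact permutation test, adjusted p = 0.703).

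Dlk1, the paternally expressed gene of the domain, codes for a membrane protein with EGF-like repeats that holds back fat cell formation. It is the only protein-coding member there, and it did not pass the age test at 27 months in any of the 6 groups tested by edgeR, limma-voom or DESeq2, with 3 of the 6 at an unadjusted edgeR p below 0.05. In the female TA Dlk1 had 0.0790, 0.184 and 0.338 CPM at 6 months and 0.152, 0.283 and 0.543 CPM at 27 months, a log2 difference of 0.58 ± 0.29 (adjusted p = 0.14). In the male gastrocnemius it had 0.206, 0.370 and 0.540 CPM at 6 months and 0.162, 0.223 and 0.376 CPM at 27 months, a log2 difference of -0.58 ± 0.22 (adjusted p = 0.048), just under the 1.5-fold limit, and leaving out any of 6 libraries turned it into a call.

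The ratio of Dlk1 to Meg3 rose in the female TA, from -7.26 ± 0.58 (SD, n = 8) to -5.79 ± 0.54 (SD, n = 10) on the log2 scale, a difference of 1.47 (exact permutation p = 9.14e-05, adjusted p = 0.00219). In the male TA the difference was 1.01 (exact permutation p = 0.0459, adjusted p = 0.344). It was 1.96 in the male soleus (exact permutation p = 0.0581, adjusted p = 0.344) and -0.13 to 0.24 in the remaining groups, none passing after adjustment. These ratios rest on few reads, with median Dlk1 counts per library over all ages of 16 in the female TA and 1 in the male soleus. The one age call for Dlk1 was a fall at 21 months in the female gastrocnemius, -0.77 ± 0.21 (edgeR adjusted p = 0.0081), where the median was 0.254 CPM against 0.441 CPM at 6 months, and the 27-month median was 0.355 CPM.

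Whole muscle also holds fibroblasts and tendon cells, and markers of both fell with age, so they are given beside these falls. Of 48 tests of 6 fibroblast markers (Pdgfra, Dcn, Col1a1, Col3a1, Lum and Dpt) at 27 months, 15 were called down and 0 up. The summed level of the 6 fell from a median of 2122 to 1301 CPM in the female diaphragm, from 1493 to 792 CPM in the female soleus, from 828 to 511 CPM in the male TA and from 729 to 534 CPM in the female TA. Ranges were 582 to 921 CPM at 6 months and 375 to 799 CPM at 27 months in the female TA, where the groups overlapped, and 701 to 1039 CPM against 361 to 712 CPM in the male TA. Medians of the sum in the gastrocnemius, male diaphragm and male soleus are not given. None of the 6 markers was at 0 in any library. Dcn, which is also on the list of other imprinted genes below, had the highest median over all libraries, 463 CPM. The other markers had 27.1 to 124 CPM, so Dcn weighs most in the sum. Of 40 tests of 5 tendon markers, 9 were called down and 0 up.

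Within groups of 1 muscle, sex and age, Meg3 went with the fibroblast sum in the diaphragm (Pearson r = 0.38, rho = 0.42, n = 98) and the soleus (r = 0.32, rho = 0.35, n = 103), with permutation p values of 0.00035 and 0.00137 for r, adjusted to 0.0007 and 0.00205 over 12 such relations. In the TA r was -0.00076 and rho -0.067 (n = 102, permutation p = 0.995 for r). In the gastrocnemius r was 0.15 and rho 0.25 (n = 104), where the permutation p was 0.175 for r and 0.0131 for rho (adjusted 0.234 and 0.0174). For Rian the values were r = 0.58 and rho = 0.57 in the diaphragm and r = 0.35 and rho = 0.35 in the soleus (permutation p = 1e-05, the smallest the permutations can give, and 0.00093, adjusted to 3e-05 and 0.00159). They were r = 0.072 and rho = 0.13 in the gastrocnemius and r = -0.12 and rho = -0.20 in the TA (permutation p = 0.526 and 0.311 for r). Without the 2 libraries farthest from the median sum, r was 0.30 and 0.33 for Meg3 in the diaphragm and soleus and 0.54 and 0.32 for Rian. Without the 3 male diaphragm libraries named above, a choice made after seeing the data, r in the diaphragm was 0.43 for Meg3 and 0.57 for Rian. The part of fibroblast or tendon RNA in the falls of Meg3 and Rian was not tested.

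H19, an abundant noncoding RNA read from the maternal allele beside Igf2, changed with age in 2 of 8 groups at 27 months. In the female TA it had 329, 537 and 651 CPM at 6 months and 222, 307 and 454 CPM at 27 months, a log2 change of -0.69 ± 0.16 (adjusted p = 0.00089), and 6 of the 10 old libraries lay below the lowest young one. The fall was already called at 18 months, with -0.72 ± 0.17 (adjusted p = 0.007), and at each later age. The male TA had medians of 119 and 110 CPM at the same ages and a log2 difference of -0.02 ± 0.17.

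In the male soleus H19 had 527, 671 and 993 CPM at 6 months and 282, 437 and 679 CPM at 27 months, a log2 change of -0.61 ± 0.13 (adjusted p = 0.0024), and 9 of the 10 old libraries lay below the lowest young one. That change is near the limit, since it was -0.55 without replicate 8 at 27 months and -0.52 without replicate 3 at 6 months, no longer a call in either case. The female soleus had a log2 difference of -0.33 ± 0.12 (adjusted p = 0.037). The diaphragm and gastrocnemius had differences of 0.00 to 0.20, none with an adjusted p below 0.05. Igf2, the paternally expressed growth factor next to H19, had log2 differences of -0.13 to 0.22 in the 8 groups, none of them called by edgeR, limma-voom or DESeq2, and 1 had an unadjusted edgeR p below 0.05. That was the male TA, where 0.22 had an edgeR adjusted p of 0.039 and was under the 1.5-fold limit.

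Plagl1 was called at 27 months in 2 of 8 groups. In the female soleus it had 7.73, 10 and 11.9 CPM at 6 months and 2.61, 6.83 and 9.37 CPM at 27 months, a log2 change of -0.71 ± 0.19 (adjusted p = 0.0069). The fall was larger before, at -1.15 ± 0.21 at 21 months and -1.24 ± 0.20 at 24 months, where the medians were 4.22 and 4.29 CPM and all libraries lay below the lowest at 6 months. The 27-month group spread over both ranges.

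In the male diaphragm Plagl1 had 13.6, 16.4 and 36.0 CPM at 6 months and 6.42, 11.3 and 14.4 CPM at 27 months, a log2 change of -0.81 ± 0.19 (adjusted p = 0.0073). Without the library that stood apart, which holds the value of 36.0 CPM, the change was -0.61 with an adjusted p of 0.027 in the edgeR test. The female diaphragm was called at 21 and 24 months, with -0.69 ± 0.15 and -0.78 ± 0.14, and had -0.54 ± 0.14 (adjusted p = 0.033) at 27 months, under the limit of 1.5-fold but called without any of 3 libraries. In the gastrocnemius and TA the differences at 27 months were -0.08 to -0.18. Hymai, the noncoding RNA that shares the Plagl1 domain, was called in none of 8 groups at 27 months by edgeR, limma-voom or DESeq2, where 2 had an unadjusted edgeR p below 0.05, and all 3 tools called it in 1 female group at 24 months.

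Cdkn1c, which codes for the cell cycle inhibitor p57, was not called at 27 months in any of the 8 groups by edgeR or limma-voom and was called in 1 by DESeq2, with an unadjusted edgeR p below 0.05 in 2. These 2 went opposite ways. In the male diaphragm Cdkn1c had 8.30, 9.78 and 17.7 CPM at 6 months and 2.92, 7.40 and 9.94 CPM at 27 months, a log2 difference of -0.57 ± 0.16 (adjusted p = 0.024), and in the female gastrocnemius it had 7.14, 8.51 and 8.98 CPM at 6 months and 8.97, 10.4 and 12.4 CPM at 27 months, a log2 difference of 0.34 ± 0.10 (adjusted p = 0.0057). Both are under the 1.5-fold limit. The young value of 17.7 CPM in the diaphragm is that of the library that stood apart, and without it the difference was -0.42 with an edgeR adjusted p of 0.081, while leaving out any of 8 other libraries, replicate 6 at 27 months among them (-0.63), made it a call. The male diaphragm was called at 21 months, with -0.60 ± 0.18 (adjusted p = 0.027), and this call was lost without the library that stood apart and without the library with liver RNA, where the change was -0.53 with an edgeR adjusted p of 0.10.

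Grb10, an adaptor protein that dampens signalling from the insulin and IGF1 receptors, was the member with the smallest differences with age. Its log2 differences at 27 months lay between -0.19 and 0.04, and no group was called by edgeR, limma-voom or DESeq2, while 2 had an unadjusted edgeR p below 0.05. The female gastrocnemius had 68.1, 72.5 and 76.2 CPM at 6 months and 55.9, 64.4 and 68.3 CPM at 27 months, a log2 difference of -0.18 ± 0.05 (adjusted p = 0.0089). Its spread within a group was also low, with a median SD of 0.16 on the log2 scale, where the median of 14182 genes tested in all 8 fits was 0.19.

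Peg3, a paternally expressed zinc-finger gene, was called at 27 months by edgeR and DESeq2 in the female gastrocnemius alone, and by limma-voom in the female diaphragm too. It had 21.3, 27.7 and 53.3 CPM there at 6 months and 10.3, 18.5 and 34.7 CPM at 27 months, a log2 change of -0.63 ± 0.17 (adjusted p = 0.0032). This call was lost without replicate 0 or 5 at 27 months (-0.56 and -0.57) or without replicate 4 at 6 months (-0.46). The female diaphragm had 43.9, 49.8 and 62.6 CPM at 6 months and 23.4, 35.6 and 48.7 CPM at 27 months, a log2 difference of -0.56 ± 0.11 (adjusted p = 0.0022) that is 1.48-fold and became a call without any of 4 libraries. The male gastrocnemius, at -0.48 ± 0.17 (adjusted p = 0.037), became a call without replicate 8 at 27 months (-0.60). In the male soleus Peg3 had medians of 20.7 and 24.7 CPM and a log2 difference of 0.48 ± 0.18 (adjusted p = 0.17), with 1 old library, replicate 8, at 87.5 CPM. The male diaphragm was called at 18 months, with -0.67 ± 0.15 (adjusted p = 0.042), a call lost on leaving out any of 8 libraries, and not at a later age.

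Nnat, which codes for neuronatin, a small membrane protein of neural, endocrine and fat tissue, was the one member that rose. In the female gastrocnemius it had 2.61, 4.36 and 11.3 CPM at 6 months and 3.24, 12.6 and 22.1 CPM at 27 months, a log2 change of 1.31 ± 0.33 (adjusted p = 0.0024). It was called there at each age from 18 months and was highest at 21 months, with 11.2, 16.4 and 26.5 CPM and a log2 change of 1.83 ± 0.34. The call at 18 months, 1.09 ± 0.35, was lost on leaving out any of 10 libraries.

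In the female TA Nnat had 0.0974, 0.329 and 0.513 CPM at 6 months and 0.217, 1.12 and 4.27 CPM at 27 months, a log2 change of 2.13 ± 0.58 (adjusted p = 0.0063), with overlap of the groups. By limma-voom this change was not called (1.90, adjusted p = 0.085). The female diaphragm was called at 21 months, with 0.491, 1.18 and 12.5 CPM at 6 months and 2.16, 17.9 and 22.8 CPM at 21 months, a log2 change of 2.29 ± 0.58 (adjusted p = 0.038), a call lost on leaving out any of 12 libraries. Its difference at 27 months was 1.72 ± 0.55 (adjusted p = 0.12), and 2.63 and a call without replicate 0 at 6 months. In males no group was called at any age by edgeR, limma-voom or DESeq2, with 1 of 20 tests at an unadjusted edgeR p below 0.05. Their log2 differences at 27 months were 0.83 ± 0.56 in the TA, -0.97 ± 0.60 in the soleus, -0.59 ± 0.35 in the gastrocnemius and 0.29 ± 0.75 in the diaphragm, and the spread within groups was the widest of the 9 members ranked, a median SD of 1.17 on the log2 scale.

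Nnat is known in fat tissue, so adipocyte markers are given beside its values. At 27 months 2 of 40 tests of Adipoq, Plin1, Cidec, Cfd and Lep were called, both up and both in the female TA. The summed level of the 5 had medians of 63.1 and 71.1 CPM in the female gastrocnemius at 6 and 27 months, with ranges of 37.4 to 85.9 and 35.5 to 110 CPM, and of 8.28 and 12.5 CPM in the female TA, with ranges of 6.37 to 12.5 and 8.26 to 25.2 CPM. In the male gastrocnemius it was 64.1 and 44.3 CPM, and in the male soleus 46.0 and 28.1 CPM. Lep was at 0 in 1 library and the other 4 markers in none.

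Within groups Nnat went with this sum in every muscle, with r = 0.62 in the TA (rho = 0.56, n = 102), 0.71 in the soleus (rho = 0.82, n = 103), 0.46 in the gastrocnemius (rho = 0.52, n = 104) and 0.58 in the diaphragm (rho = 0.59, n = 98). The permutation p was 1e-05, the smallest it can be, in all but the gastrocnemius (2e-05), and the adjusted values were 3e-05 and 4.8e-05. Without the 2 libraries farthest from the median sum r was 0.56, 0.67, 0.46 and 0.55. The part of fat tissue RNA in the rise of Nnat was not tested. Blcap, in which Nnat lies, had log2 differences of -0.12 to 0.05 and was called in none of 8 groups by edgeR, limma-voom or DESeq2, with 1 unadjusted edgeR p below 0.05.

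**Figure D2:**
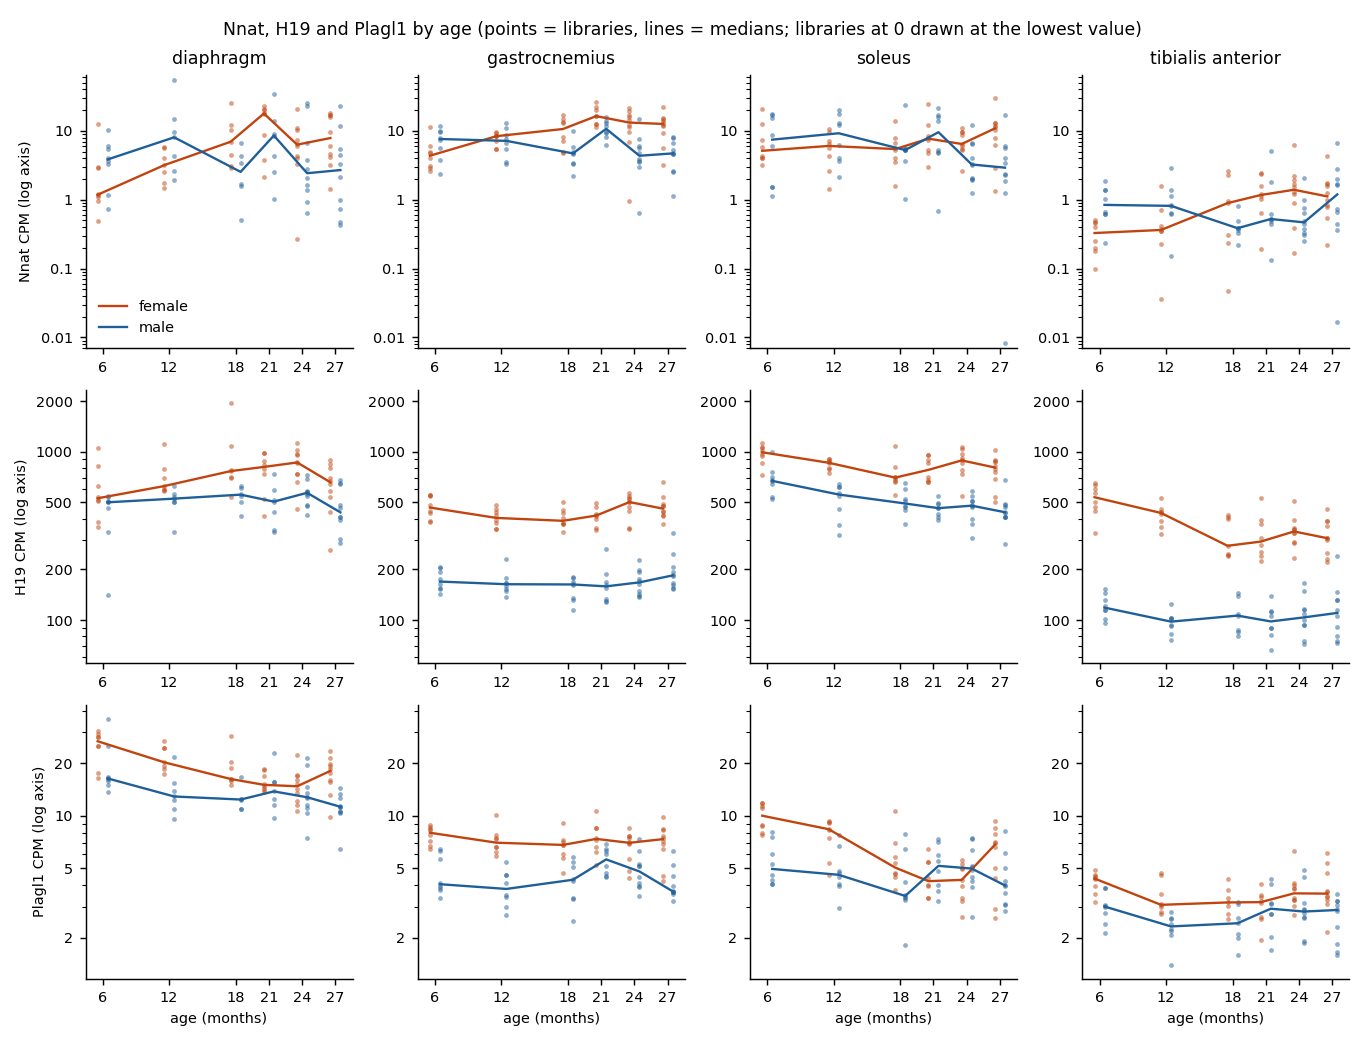
Levels of Nnat, H19 and Plagl1 in CPM (log axis) against age in months in the 4 muscles; points are libraries, lines join group medians, and females are orange and males blue. Nnat medians in the female gastrocnemius go from 4.36 CPM at 6 months to 16.4 CPM at 21 months and 12.6 CPM at 27 months, and H19 in the female TA drops from 537 to 307 CPM while the male TA stays near 110 CPM.

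**Figure D3:**
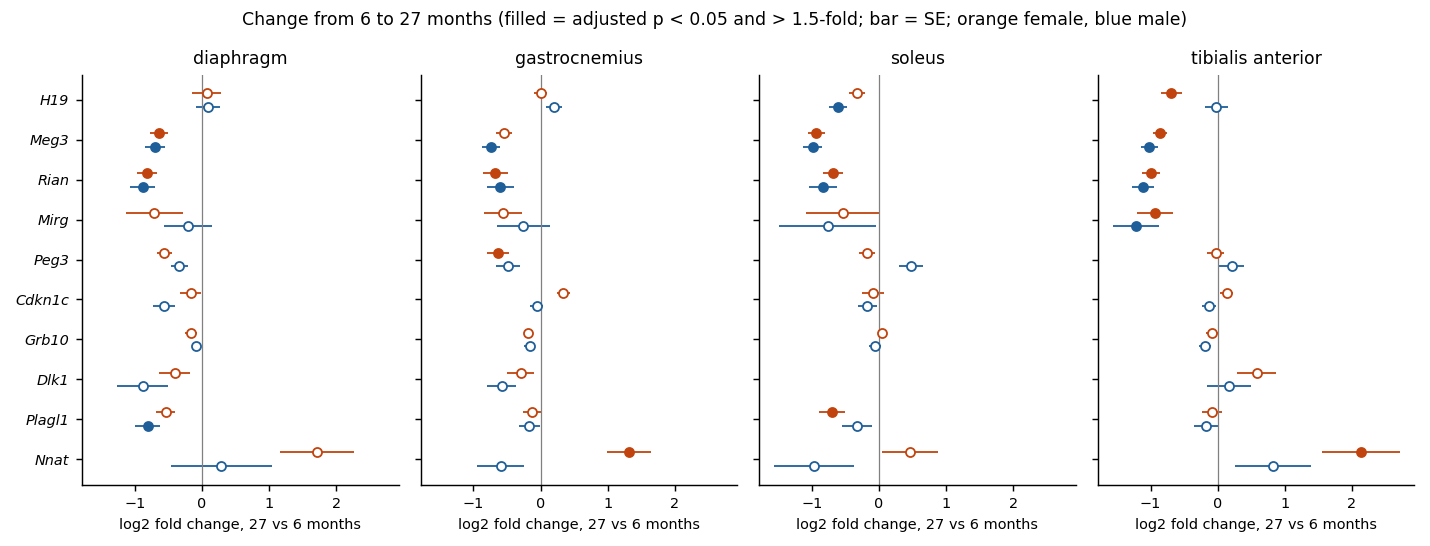
Log2 fold change of each member from 6 to 27 months with its standard error, by muscle and sex, with filled symbols for calls and open symbols for the rest. Rian is filled in all 8 groups and Meg3 in 7, all below 0, and Nnat is filled in the female gastrocnemius and TA above 0.

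The form of the age course was described for the 31 combinations called at any age by setting a straight line and a sigmoid of 4 parameters, both over log age, against no change, with the Bayesian information criterion (BIC) as the measure. In 26 of the 31 the better curve was more than 6 BIC units below the constant. All 26 were classed as linear, 23 falling and 3 rising, by a rule that kept the line unless the sigmoid was more than 2 units lower. The 31 were called in these same data, so a curve better than the constant is no separate result. Neither curve can turn back, although some courses above did, such as those of Plagl1 and Rian in the female soleus. With margins of 10 and 4 the number was 25, and with age in months instead of its logarithm 26.

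Muscles were compared in 1 fit of all libraries, each muscle as the mean of its 12 groups of sex and age. The members called were 7 of 10 between diaphragm and gastrocnemius (51.8% of all genes), 6 between diaphragm and soleus (38.8%), 7 between diaphragm and TA (53.8%), 5 between gastrocnemius and soleus (30.3%), 3 between gastrocnemius and TA (16.2%) and 8 between soleus and TA (32.3%). Libraries of different muscles may come from the same mouse, which the fit does not use.

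Meg3 was highest in the diaphragm, 2.22-fold over the TA (log2 difference 1.15 ± 0.04, adjusted p = 9.4e-94), 2.44-fold over the gastrocnemius and 3.62-fold over the soleus. Over all ages its medians were 29.8 and 33.7 CPM in the female and male diaphragm, 19.8 and 10.1 CPM in the TA, 13.2 and 11.3 CPM in the gastrocnemius and 8.78 and 8.43 CPM in the soleus. The gastrocnemius and TA, neighbours in this order, differed by 0.13 on the log2 scale, or 1.10-fold. Rian had the same order, with the diaphragm 1.81-fold over the TA and 3.53-fold over the soleus, and Mirg had the diaphragm 1.42-fold over the TA, which is under the limit, and 2.69-fold over the soleus.

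Dlk1 followed this order only in part. It was 2.0-fold higher in the diaphragm than in the gastrocnemius, which was 1.31-fold over the TA, and the soleus was the lowest by far, 17.6-fold below the diaphragm (log2 difference 4.14 ± 0.18, adjusted p = 1.8e-88). Female and male soleus had medians of 3 and 1 counts of Dlk1 per library and 16 and 25 libraries at 0, so this fold rests on very few counts. Plagl1 was also highest in the diaphragm, 2.82-fold over the gastrocnemius, 2.95-fold over the soleus and 5.17-fold over the TA (log2 difference 2.37 ± 0.05), and its gastrocnemius and soleus had a difference that did not pass the test (0.06 ± 0.05, adjusted p = 0.27).

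H19 and Grb10 had another order. H19 was 3.24-fold higher in the soleus and 3.05-fold higher in the diaphragm than in the TA, and the soleus and diaphragm did not pass the test against each other (-0.09 ± 0.05, adjusted p = 0.068). Grb10 was highest in the soleus, 1.52-fold over the diaphragm, 1.94-fold over the gastrocnemius and 2.36-fold over the TA, with the TA lowest. Peg3 was lowest in the gastrocnemius, 2.16-fold below the TA, 1.85-fold below the diaphragm and 1.61-fold below the soleus. Cdkn1c varied least, and its one call was the gastrocnemius 1.54-fold over the soleus.

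Nnat was lower in the TA than in each other muscle, by 2.85 ± 0.17, 3.15 ± 0.17 and 3.00 ± 0.17 on the log2 scale against the diaphragm, gastrocnemius and soleus (adjusted p = 1.1e-43, 1.8e-49 and 2.8e-47). Differences among the other 3 muscles, of -0.31 ± 0.16 to 0.15 ± 0.15, did not pass the test (adjusted p of 0.061 to 0.38). Over all ages its medians were 0.848 and 0.626 CPM in the female and male TA and 3.71 to 11.2 CPM elsewhere. The TA also had the lowest adipocyte marker sum, with group medians of 5.75 to 14.5 CPM where the other muscles had 28.1 to 190 CPM.

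**Figure D4:**
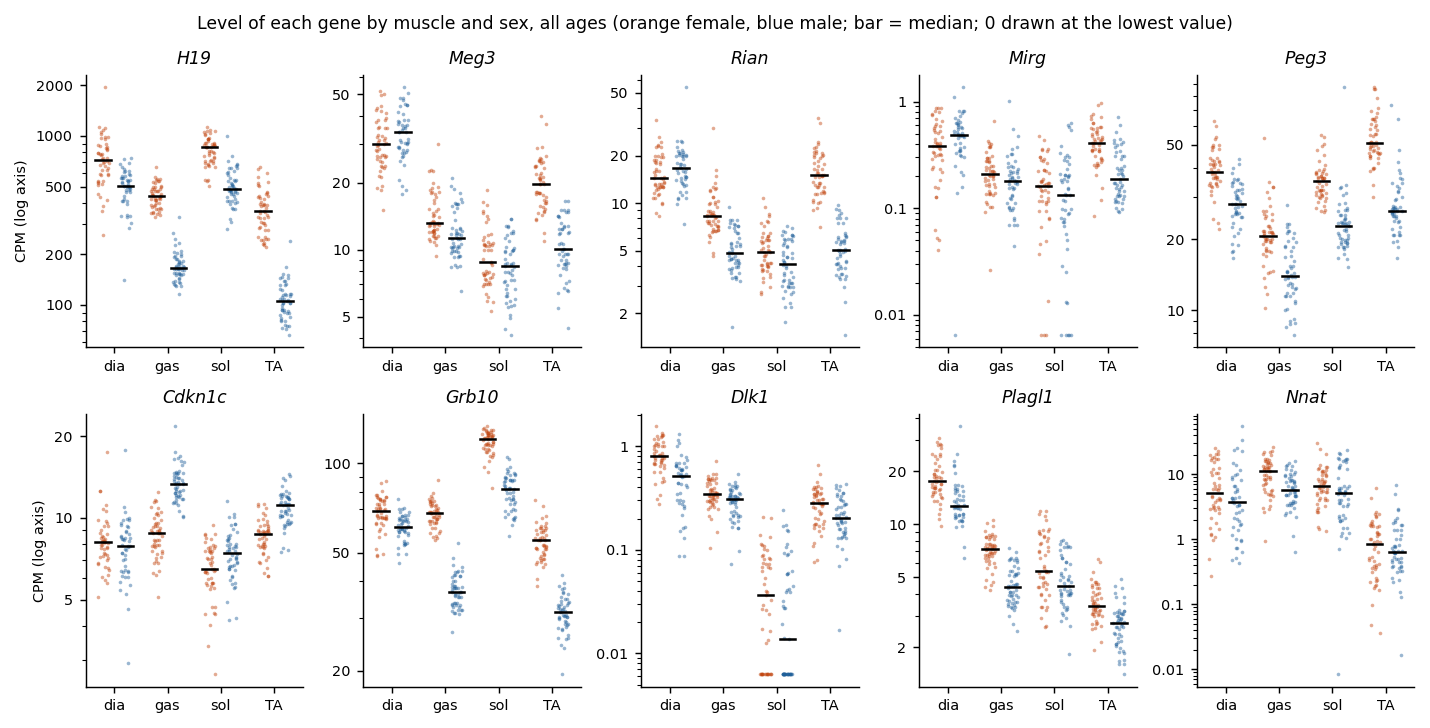
Level of each member in CPM (log axis) in the 4 muscles of females and males over all ages; points are libraries and bars medians. Dlk1 is near 0 in the soleus, Nnat is lowest in the TA, and H19 medians are 359 CPM in the female and 106 CPM in the male TA.

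Whether a change with age differed between muscles was tested as the difference of the changes from 6 to 27 months, with the sexes averaged, at an adjusted p below 0.05. Of 60 tests 8 passed. They were 1 of 10 members between diaphragm and gastrocnemius (8.44% of all genes), 2 between diaphragm and soleus (11.7%), 2 between diaphragm and TA (6.89%), 2 between gastrocnemius and soleus (5.81%), 1 between gastrocnemius and TA (0.688%) and 0 between soleus and TA (4.61%), where edgeR gave 2 and limma-voom 1 at an unadjusted p below 0.05. The pairs share muscles, so these calls are not independent of each other.

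The change of H19 was more negative in the soleus than in the diaphragm, by 0.56 ± 0.16 (adjusted p = 0.0095), and than in the gastrocnemius, by 0.56 ± 0.16 (adjusted p = 0.015). It was also more negative in the TA than in the diaphragm, by 0.47 ± 0.16 (adjusted p = 0.049). The last was lost without the diaphragm library that stood apart (0.40, edgeR adjusted p = 0.10) and without the one with liver RNA at 21 months (0.46, edgeR adjusted p = 0.054). By sex, H19 had log2 differences of 0.07 in the female and 0.09 in the male diaphragm. In the TA they were -0.69 in females and -0.02 in males. Peg3 had a more negative change in the gastrocnemius than in the soleus (-0.72 ± 0.16, adjusted p = 0.00062) and the TA (-0.63 ± 0.16, adjusted p = 0.017), and in the diaphragm than in the soleus (-0.59 ± 0.16, adjusted p = 0.0047) and the TA (-0.50 ± 0.16, adjusted p = 0.027). The difference between gastrocnemius and TA did not pass with limma-voom (-0.58, adjusted p = 0.053). For Cdkn1c the diaphragm was lower than the gastrocnemius, by -0.49 ± 0.13 (adjusted p = 0.0065). No pair of muscles differed in the change of Meg3 or Rian by edgeR or limma-voom, with 4 of 6 tests of Meg3 and 1 of 6 tests of Rian at an unadjusted p below 0.05 in each.

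Females had higher levels than males in 14 of the 15 calls by sex, each sex taken as the mean of its 6 ages. The members called were 6 of 10 in the TA (5.27% of all genes), 2 of 10 in the soleus (3.97%), 6 of 10 in the gastrocnemius (8.17%) and 1 of 10 in the diaphragm (5.18%). H19 was the most different, 3.39-fold higher in the female TA (log2 difference 1.76 ± 0.07), 2.60-fold in the gastrocnemius and 1.64-fold in the soleus, and in the diaphragm 1.47-fold, under the limit. In the TA 47 of 51 female libraries lay above the highest male one, and in the gastrocnemius all 52 did.

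The noncoding RNAs of the Dlk1-Dio3 domain differed by sex in the TA, where Rian was 3.03-fold (log2 1.60 ± 0.06), Meg3 1.94-fold and Mirg 1.86-fold higher in females. Rian was also 1.77-fold higher in the female gastrocnemius. In the diaphragm the 3 had differences of -0.13 to -0.29, none passing the test. Dlk1 was 1.67-fold higher in the female diaphragm. Grb10 was 1.82-fold higher in the female gastrocnemius and 1.73-fold in the TA, Peg3 1.87-fold in the TA and 1.51-fold in the soleus, Plagl1 1.59-fold and Nnat 1.57-fold in the gastrocnemius. Cdkn1c was the one member higher in males, 1.56-fold in the gastrocnemius (log2 -0.64 ± 0.04), with a difference of the same sign in the TA, -0.36 ± 0.04, under the fold limit.

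The change with age differed between the sexes for 1 member in 1 muscle. Nnat in the gastrocnemius had a log2 change 1.89 ± 0.49 higher in females than in males (adjusted p = 0.024), where 1.6% of all genes passed. In the soleus 0.855% and in the TA 1.73% of all genes passed, and no member did by edgeR or limma-voom, with 1 edgeR test in each at an unadjusted p below 0.05. In the diaphragm 0.0% of 16613 genes passed in edgeR, with 993 genes at an unadjusted p below 0.05, and limma-voom gave 0 and 631; no member passed there by either tool, and 0 and 1 had an unadjusted p below 0.05. By limma-voom the difference of Nnat in the gastrocnemius did not pass. The fall of H19 in the female TA, set against the value of -0.02 in the male TA, did not pass this test (-0.67 ± 0.24, adjusted p = 0.12).

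Some pairs of members also varied together among mice of the same muscle, sex and age. No share for pairs of all genes was taken, so the counts below cannot be called particular to the members. Over deviations of log2 CPM from the group mean, 53 of 180 pairs of members within a muscle passed a permutation test after adjustment over the 180, 41 of them positive and 12 negative, and 48 passed by Spearman's rho. Meg3 and Rian went together in all 4 muscles, with r = 0.75 in the TA, 0.45 in the soleus, 0.76 in the gastrocnemius and 0.40 in the diaphragm and rho from 0.49 to 0.75. Their permutation p values ran from 1e-05, the smallest possible, to 0.00023, their adjusted values from 0.000164 to 0.00166, and without the 2 libraries farthest from the median r was 0.41 to 0.70. The libraries of a muscle share their sequencing and normalization, so such values also hold what those share.

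Rian and Mirg had r = 0.61 in the gastrocnemius (rho = 0.52) and 0.54 in the TA (rho = 0.58), both with a permutation p of 1e-05 and an adjusted p of 0.000164. The strongest pair across domains was Rian with Plagl1 in the diaphragm, r = 0.68 and rho = 0.67 (permutation p = 1e-05, adjusted p = 0.000164), and 0.61 without the 2 farthest libraries. Without the 3 male diaphragm libraries r was 0.63 for this pair and 0.54 for Meg3 with Rian. Plagl1 with Nnat, Peg3 with Nnat and Peg3 with Plagl1 each passed in 3 of the 4 muscles, with r of 0.29 to 0.44. H19 went against Nnat in the TA (r = -0.50, rho = -0.40, permutation p = 2e-05, adjusted p = 0.000277) and in the gastrocnemius (r = -0.30, rho = -0.28, permutation p = 0.00407, adjusted p = 0.0179), and without the 2 farthest libraries r was -0.39 and -0.31. In the diaphragm the sign was the opposite, with r = 0.24 and rho = 0.22 (permutation p = 0.0198, adjusted p = 0.0604), and in the soleus r was -0.17 and rho -0.021 (permutation p = 0.119, adjusted p = 0.254).

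**Figure D5:**
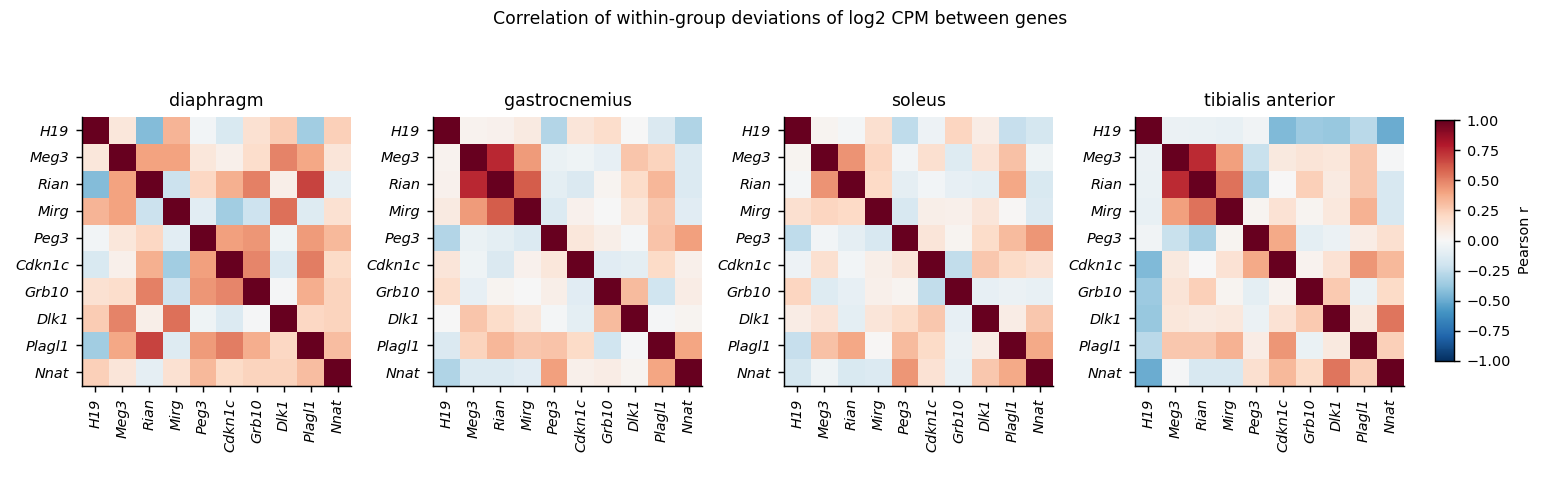
Pearson r between members over deviations of log2 CPM from the mean of muscle, sex and age group, with 1 square panel for each muscle and a colour scale from -1 to 1. Meg3 and Rian are positive in all 4 panels, from 0.40 to 0.76, and H19 with Nnat is -0.50 in the TA.

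Among 14182 genes tested in all 8 fits, the genes most like each member were ranked by the mean r over the 4 muscles and all libraries, given here as a description. Rian was nearest to Meg3 (mean r = 0.59), followed by Oaf (0.46), and Medag (0.59) was as near to Rian as Meg3 was. Nnat was nearest to Lep (0.80), the leptin gene, then to Aoc3 (0.70) and Klhdc7a (0.69), and Lep is itself in the adipocyte list above. Vegfb (0.64), Slc25a11 (0.63) and Hspb6 (0.62) were nearest to H19. Zim1, a gene of the same imprinted domain, was nearest to Peg3 (0.50), Chrdl1 (0.56) to Plagl1, Gyg (0.48) to Grb10, Zfhx4 (0.47) to Cdkn1c and Sema6b (0.43) to Mirg. Dlk1 was not ranked, since it was not tested in the soleus.

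The other imprinted genes are given for the same comparison. Of 55 listed genes 48 were tested, in 360 tests at 27 months, and 22 tests in 13 genes were called, which is 6.11% of them, with 12 up and 10 down. This lies within the 1.19% (male soleus) to 7.01% (female TA) of all genes called in the same comparisons. The calls with the largest changes were a rise of Rasgrf1, an exchange factor for Ras, in the soleus and diaphragm of both sexes (log2 1.23 to 2.61), a rise of Dio3, the deiodinase at the far end of the Dlk1-Dio3 domain, in the male gastrocnemius (1.39 ± 0.50, edgeR adjusted p = 0.042) and a fall of Zdbf2 in the female gastrocnemius (-1.16 ± 0.15, adjusted p = 3.3e-08). Also called were Ddc, up by 1.05 in the female TA, Slc38a4, down in the male gastrocnemius (-0.90), Slc22a18, up by 0.90 and 0.86 in the female gastrocnemius and TA, Asb4, down in the male soleus and diaphragm (-0.79 and -0.67), Zim1, down in the female diaphragm and soleus (-0.76 and -0.75), Mest, down in the diaphragm of both sexes (-0.74 and -0.75), and Slc22a3, up by 0.69 in the female TA. Neighbours of the members in the same domains, Rtl1 with 2 tests, Usp29 with 4 and Kcnq1ot1 with 8, had no call by edgeR, limma-voom or DESeq2, and 1, 0 and 3 tests at an unadjusted edgeR p below 0.05. Kcnq1ot1 was under the 1.5-fold limit in the male diaphragm (-0.39, edgeR adjusted p = 0.033) and the female soleus (-0.27, edgeR adjusted p = 0.042).

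The other marker lists are given once for the same 27-month comparison. Markers of denervation and embryonic muscle had 52 of 96 tests called up and 0 down, satellite cell markers 1 up and 9 down of 48, slow fibre markers 10 up and 1 down of 48, fast fibre markers 0 up and 1 down of 48, macrophage markers 5 up of 40, liver markers 6 up of 48, Schwann and nerve markers 2 up and 3 down of 48, and mesothelium markers 1 up of 14. Endothelial markers had none of 40 called by edgeR, limma-voom or DESeq2, and 14 at an unadjusted edgeR p below 0.05.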

How the data were processed

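Total RNA of 4 muscles was sequenced as strand-specific paired-end libraries. The authors aligned the reads with ArrayStudio to the mm10 build and counted them on their own RefSeq-derived gene model, and they deposited 1 file of whole-number read counts per gene for each library, with no normalization. No source used here states whether counting used strand.

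Groups were taken from the labels of the libraries. Where rows share a symbol (329 symbols), the row with the largest total was kept, and the other 633 rows, with 0.0335% of counts, were left out. Genes with low counts were removed by filterByExpr, libraries were scaled by TMM, and each comparison was fitted over all genes with the quasi-likelihood test of edgeR 4.0.16 in R 4.3.3, with Benjamini-Hochberg adjustment. Age was tested within each muscle and sex, sex within each muscle, and muscle over all libraries. limma 3.58.1 (voom) and DESeq2 1.42.0 were alternatives, beside other scaling, filters, thresholds, a replicate block, a term for runs of sample numbers, and leaving out libraries. Log2 CPM used a prior count of 0.5. Ratios were compared with exact permutation tests and correlations with 100000 permutations in SciPy 1.17.1. Library totals of 38583802 to 300089909 counts set the precision, which for Mirg, Dlk1 and Nnat in the TA is limited by low counts. Replicates are separate muscle samples.

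The members and all lists were chosen with earlier results of these data known. Named genes were the 10 members, the 3 most alike genes of each, of which the nearest are given, and up to 10 other imprinted genes called at 27 months with the largest changes. The age fit was tested on simulated data for the male gastrocnemius (15227 genes), where 44%, 88%, 92% and 94% of genes changed 1.5-, 2-, 3- and 4-fold were called, and 0.0335% of unchanged genes. A call needs an estimate above 1.5-fold, so genes changed 1.5-fold lie on that limit and the 44% is partly set by it.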

Additional observations from a re-analysis of the deposited data

Results flagged for a closer look

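In 51 of 480 groups of 1 gene, muscle, sex and age (10.6%), the highest or lowest library stood apart from the rest by Dixon's 95% criterion, 20 high and 31 low, and chance alone does so in about 1 in 20 groups. The values are CPM, and the median of the other libraries follows each.

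Meg3 was 42.1 in replicate 4 of the female diaphragm at 18 months (others 26.1) and 29.9 in replicate 2 of the male diaphragm at 6 months (others 45.2). It was also 30.02 in replicate 2 of the female gastrocnemius at 18 months (others 12.8) and 22.5 in replicate 3 of the female gastrocnemius at 27 months (others 11.9). It reached 12.1 in replicate 6 of the male gastrocnemius at 6 months (others 16.3) and 9.90 in replicate 4 of the male gastrocnemius at 12 months (others 11.8). It came to 7.77 in replicate 4 of the female soleus at 12 months (others 10.8).

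Rian was 54.4 in replicate 2 of the male diaphragm at 6 months (others 21.7) and 29.99 in replicate 2 of the female gastrocnemius at 18 months (others 8.68). It was also 16.2 in replicate 3 of the female gastrocnemius at 27 months (others 6.78).

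Mirg was 0.0502 in replicate 2 of the female diaphragm at 6 months (others 0.565) and 0 in replicate 2 of the male diaphragm at 6 months (others 0.484). It was also 0.655 in replicate 2 of the female gastrocnemius at 18 months (others 0.229) and 0.0261 in replicate 6 of the female gastrocnemius at 21 months (others 0.146). It reached 0 in replicate 5 of the female soleus at 18 months (others 0.171) and 0 in replicate 4 of the female soleus at 21 months (others 0.109). It came to 0.0135 in replicate 3 of the female soleus at 24 months (others 0.209) and 0.0129 in replicate 6 of the male soleus at 6 months (others 0.276). It also came to 0 in replicate 5 of the male soleus at 18 months (others 0.198).

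Dlk1 was 0.311 in replicate 0 of the female diaphragm at 27 months (others 0.775) and 0.278 in replicate 5 of the female gastrocnemius at 6 months (others 0.443). It was also 0.0190 in replicate 3 of the male soleus at 12 months (others 0) and 0.0756 in replicate 8 of the female TA at 24 months (others 0.348).

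H19 was 141 in replicate 2 of the male diaphragm at 6 months (others 502) and 332 in replicate 2 of the male diaphragm at 12 months (others 534).

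Plagl1 was 16.7 in replicate 0 of the male diaphragm at 18 months (others 12.3) and 6.42 in replicate 8 of the male diaphragm at 27 months (others 11.3). It was also 6.31 in replicate 2 of the female TA at 24 months (others 3.37) and 1.4 in replicate 0 of the male TA at 12 months (others 2.39).

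Cdkn1c was 11.1 in replicate 2 of the female diaphragm at 12 months (others 7.79) and 17.5 in replicate 0 of the female diaphragm at 27 months (others 7.33). It was also 17.7 in replicate 2 of the male diaphragm at 6 months (others 9.57) and 2.92 in replicate 8 of the male diaphragm at 27 months (others 7.40). It reached 4.29 in replicate 9 of the male soleus at 24 months (others 7.92).

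Grb10 was 53.9 in replicate 6 of the male gastrocnemius at 21 months (others 36.1) and 27.7 in replicate 6 of the male TA at 6 months (others 34.3). It was also 39.4 in replicate 4 of the male TA at 18 months (others 29.9) and 42.1 in replicate 6 of the male TA at 21 months (others 30.3).

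Peg3 was 22.1 in replicate 1 of the female diaphragm at 24 months (others 38.4) and 17.7 in replicate 0 of the male diaphragm at 12 months (others 27.9). It was also 23.2 in replicate 8 of the male gastrocnemius at 27 months (others 12.3) and 54.0 in replicate 1 of the female soleus at 12 months (others 32.2). It reached 26.9 in replicate 3 of the female soleus at 21 months (others 32.1) and 87.5 in replicate 8 of the male soleus at 27 months (others 24.0). It came to 73.2 in replicate 2 of the male TA at 24 months (others 26.2).

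Nnat was 0.268 in replicate 1 of the female diaphragm at 24 months (others 6.55) and 0.944 in replicate 8 of the female gastrocnemius at 24 months (others 14.2). It was also 0.638 in replicate 6 of the male gastrocnemius at 24 months (others 4.83) and 0.696 in replicate 5 of the male soleus at 21 months (others 13.8). It reached 0 in replicate 1 of the male soleus at 27 months (others 3.44) and 0.0167 in replicate 1 of the male TA at 27 months (others 1.66).

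The change from 6 to 27 months differed between muscles or sexes by a test of the difference itself in 9 cases, all given above with their errors. Cdkn1c differed by -0.49 (diaphragm minus gastrocnemius) on the log2 scale. H19 differed by 0.56 (diaphragm minus soleus), 0.47 (diaphragm minus TA), 0.56 (gastrocnemius minus soleus) on the log2 scale. Peg3 differed by -0.59 (diaphragm minus soleus), -0.50 (diaphragm minus TA), -0.72 (gastrocnemius minus soleus), -0.63 (gastrocnemius minus TA) on the log2 scale. Nnat differed by 1.89 (female minus male, gastrocnemius) on the log2 scale.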

How the results depend on the processing

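The 24 calls of members at 27 months became 25 with DESeq2, 24 with DESeq2's size factors, limma-voom, no filter or a term for runs of sample numbers, 21 at 1 CPM or more and 32 at a lower fold limit, and the 31 at any age became 30, 30, 30, 30, 32, 26 and 38. With Bonferroni adjustment 8 and 12 remained as counts. Leaving out each library in turn gave 23 to 26 and 29 to 32 calls. Muscle by age calls were 8, and 7 with limma-voom, 9 with limma-voom and the replicate block, 7 without the male diaphragm 6-month replicate 2, 4 at an adjusted p below 0.01 and 0 with Bonferroni adjustment, and the 1 sex by age call became 0 with limma-voom, at an adjusted p below 0.01 and with Bonferroni adjustment; these causes were not tested. The 1 call among ratios became 2 without replicate 0 at 27 months in the female diaphragm, replicate 3 in the female TA or replicate 1 in the male TA. The r of Cdkn1c with Grb10 in the soleus, -0.25, turned to 0.019 without TMM, and the cause was not tested.

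The labels give replicate numbers in every group, and do not tie them to mice. Across ages, and between the diaphragm and another muscle, same-numbered samples did not deviate together (median correlations of their deviations of 0.0056 to 0.094). Between the gastrocnemius, soleus and TA of 1 sex and age they did in part, with medians of 0.20 to 0.27 and 71.8% to 79.2% of pairs over 0.1, but with lowest values of -0.62 to -0.41. The numbers were therefore not taken as pairs, and the muscle tests treat these samples as separate. With the replicate block the age calls were 22 and 28 and the sex calls 15 of 15. The edgeR block fit over all libraries was not run, and limma-voom with the block gave 38 muscle calls where edgeR gave 36. Depth limits Mirg, Dlk1 and Nnat in the TA, and p-values measure the spread between muscle samples of mice that share a collection day.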
